A study of Mus musculus with 18 samples.

Results

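Blood vessels of the brain carry mural cells, which are contractile smooth muscle cells around arteries and pericytes around capillaries. Fibroblasts lie in the meninges and along larger vessels. Described here are 38 genes known from these cells, given as a list of symbols and matched to the gene identifiers of the count table. All 38 of 38 had enough counts to be tested, out of 16738 genes tested in all. They comprise 6 smooth muscle genes, 7 pericyte genes and 25 fibroblast genes. The fibroblast genes include 10 for extracellular matrix, 8 for secreted proteins and enzymes, 3 for transporters and 4 for transcription factors. The 4 transcription factors are also active in other mesenchymal cells, and they were counted with the fibroblast genes here, a placement made with their values known.

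The study sequenced poly(A) RNA from the hippocampus of wild-type (WT) adolescent male C57BL/6J mice, with 1 library per mouse and 6 mice per group. Control mice had no treatment. CSDS mice went through chronic social defeat stress, in which an intruder mouse repeatedly meets a resident. Exercised mice went through the same stress and trained aerobically from 1 week before it and throughout it. No exercised group without stress was analysed here, so exercise alone cannot be read from these data. All samples carry 1 batch label. Levels are scaled counts (CPM, as defined by edgeR), and a log2 fold change carries its standard error (SE).

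Smooth muscle cells contract through actin and myosin, and many of their genes are switched on by serum response factor, which binds a sequence known as the CArG box. Pericytes depend on platelet-derived growth factor from endothelium, received by Pdgfrb, and on Notch3. Meningeal fibroblasts make collagen-binding proteoglycans, retinoic acid and insulin-like growth factor 2, and those of the arachnoid barrier carry organic anion and amino acid transporters.

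The promoters of 3 smooth muscle genes are shown because all 6 smooth muscle genes had negative fold changes in both comparisons of exercised mice, described below, although Des turned to 0.057 against CSDS mice with GC correction. The sequences are from RefSeq on GRCm38.p6, 5′ to 3′ on the gene's strand, and capitals mark a CArG box. The box was searched as CC, then 6 inner bases that are all A or T, then GG, a pattern that reads alike on both strands. A looser match with A or T at 5 of the 6 inner bases was added after the strict one had found no box in Acta2. For Acta2 the 30 bases around each box are given, at chr19:34255438-34255467 and chr19:34255388-34255417 on the minus strand. For Myl9 and Cnn1 the stretch upstream of every annotated exon is given, at chr2:156775214-156775419 and chr9:22099003-22099215 on the plus strand.
Acta2, first box: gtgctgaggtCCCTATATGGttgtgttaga
Acta2, second box: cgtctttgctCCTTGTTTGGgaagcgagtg
Myl9: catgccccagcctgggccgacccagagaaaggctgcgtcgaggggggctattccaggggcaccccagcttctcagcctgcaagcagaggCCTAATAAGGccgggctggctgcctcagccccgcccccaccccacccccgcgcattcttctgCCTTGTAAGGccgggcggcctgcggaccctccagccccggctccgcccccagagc
Cnn1: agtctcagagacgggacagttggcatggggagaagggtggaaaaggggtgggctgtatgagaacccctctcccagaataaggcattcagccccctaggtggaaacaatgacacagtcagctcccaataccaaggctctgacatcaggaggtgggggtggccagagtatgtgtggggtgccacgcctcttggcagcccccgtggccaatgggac

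The boxes of Acta2 began 84 and 34 bases before the RefSeq start, and those of Myl9 161 and 99 bases before it. The first Myl9 box matched at all inner positions, and the other 3 boxes only under the looser match. In the 250 bases before the start, the looser match was found in 6 of the 30 members with a promoter in the table and in 9.78% of all genes. The strict match was found in 3 of 30 members and in 1.62% of all genes. Of the 4 smooth muscle members with a promoter there, 2 had the looser match (Acta2 and Myl9) and 1 the strict one (Myl9). Among 26 other members these were 4 and 2. Des had neither match, and Tagln and Myh11 had no promoter in the table. Cnn1, the smooth muscle gene with the most negative fold changes, had no match of either kind in this window.

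The libraries held 18911080 to 24136591 estimated counts. Control replicate 2 stood apart: Lamp5, a neocortical marker, was at 259 CPM there and at 25.7 to 42.8 CPM in the other 17 libraries, and Prox1, a dentate granule marker, was at 10.4 against 83.5 to 145 CPM. The summed level of 12 choroid plexus markers, led by Ttr and Kl, ranged from 316 to 7512 CPM in controls, 210 to 11095 CPM in CSDS mice and 185 to 8652 CPM in exercised mice. That of 8 thalamic markers, led by Tcf7l2 and Tnnt1, reached 696, 185 and 1026 CPM in the same groups, from a lowest value of 140, 127 and 137 CPM. The 12 endothelial markers, led by Cldn5 and Flt1, ranged from 396 to 543, 378 to 432 and 364 to 474 CPM. All markers of these lists were detected in every group. The part of these tissue differences in the results below was not tested, except where a value is given.

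Per kilobase of median transcript length, and averaged over the 18 libraries, Igf2 was highest at 167 CPM per kb. Vtn, a pericyte-secreted adhesion protein, followed at 79.0, and Igfbp2, which binds insulin-like growth factors, at 57.1 CPM per kb. Foxd1, a transcription factor, was lowest at 0.29 CPM per kb. Variation between mice was unequal. The coefficient of variation of CPM over all 18 libraries was 10.95% for Lama2, a laminin chain of the basement membrane, and 12.8% for Vtn, but 60.3% for Igf2 and 68.8% for Igfbp2. Dcn, the proteoglycan decorin, ranged from 3.90 CPM in control replicate 2 to 59.35 CPM, a ratio of 15.2.

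CSDS mice were compared with controls first, to see which genes differ after social defeat. By edgeR's quasi-likelihood test, 0 of 38 members passed an adjusted p of 0.05, as did 0.0% of all genes tested, and DESeq2 and limma voom also called 0 members. At an unadjusted p under 0.05, edgeR had 1 member, Foxd1, which was higher. Of all genes, 3.51% fell under that value and 1.83% did so with a higher level, and with GC correction, which adjusts each library for the GC content of transcripts, it was 1 member and 4.13% of all genes. The median log2 fold change was 0.07 over the members and 0.00 over all genes, and that of the members was -0.00077 without control replicate 2. In 0 of 38 members did the 6 CSDS mice lie wholly apart from the 6 controls, against 0.239% of all genes.

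Foxd1, a forkhead transcription factor of mesenchymal cells and pericyte precursors, was at 0.726, 0.972 and 2.09 CPM (lowest, median and highest) in controls. In CSDS mice it was at 1.62, 2.04 and 2.88 CPM. All 6 CSDS mice lay above the control median, and controls 4 and 5 overlapped with them. The log2 fold change was 0.70 ± 0.28 (edgeR adjusted p = 0.993), from 15 to 63 counts per library over all groups. In bulk tissue, for this and every other gene here, fewer cells of a type and less RNA per cell cannot be told apart.

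Foxc1, a forkhead factor needed for meningeal development, was at 5.71, 6.66 and 8.10 CPM in controls and at 4.95, 9.19 and 10.4 CPM in CSDS mice. Of the 6 CSDS mice, 4 lay above every control and 1 below every control. The log2 fold change was 0.30 ± 0.17. Anpep, the pericyte aminopeptidase CD13, was at 3.04, 4.12 and 4.92 CPM in controls and at 3.38, 5.34 and 6.94 CPM in CSDS mice, again with 4 CSDS mice above every control (0.38 ± 0.18). Slc22a6, an organic anion transporter of the arachnoid barrier, had a log2 fold change of 0.47 ± 0.36. None of these passed the adjusted threshold in edgeR.

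By cell class, 20 of the 25 fibroblast genes had a positive fold change in CSDS mice, with a median of 0.13. All 4 transcription factors were among the 20, and no median was taken without them. The highest fold change was that of Foxd1. The 6 smooth muscle genes had a median of -0.05 with 5 negative, and the 7 pericyte genes a median of -0.04 with 5 negative. These medians depended on single mice. The fibroblast median was 0.042 without control replicate 2 and 0.22 without CSDS replicate 4. The smooth muscle and pericyte medians turned to 0.059 and 0.024 without control replicate 3, and both to 0.014 without CSDS replicate 4. In the same comparison 12 of 12 choroid plexus markers (median -0.30), 8 of 8 thalamic markers (-1.01) and 10 of 12 endothelial markers (-0.14) were below 0, and their part in these medians was not tested.

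Among the mural genes, Cnn1, the actin-binding protein calponin, was at -0.39 ± 0.36, Myh11, the smooth muscle myosin heavy chain, at 0.11 ± 0.15, and Des, the intermediate filament desmin, at -0.15 ± 0.23. Acta2, smooth muscle actin, was at -0.02 ± 0.17 and Pdgfrb at 0.08 ± 0.15. Rgs5, a pericyte regulator of G-protein signals, was at -0.10 ± 0.14, Dcn at 0.36 ± 0.46 and Igf2 at -0.10 ± 0.52. None of these passed edgeR's threshold, and the direction for Acta2, Des, Rgs5 and Igf2 turned under at least 1 other setting.

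The second comparison, exercised against CSDS mice, asked what aerobic training changes under stress. By edgeR, 0 of 38 members passed the adjusted threshold, as did 0.0% of all genes. DESeq2 called 0 members among 173 genes (1.03%). Limma voom with quality weights called 11 members among 5567 genes (33.3%), a share of the members close to that of all genes. These were Foxc1, Notch3, Foxd1, Myh11, Nid1, Pdgfrb, Islr, Fbln1, Myl9 and Cnn1, all lower in exercised mice, and Rgs5, which was higher. At an unadjusted p under 0.05, edgeR had 4 members, all lower: Foxd1, Foxc1, Cnn1 and Myh11. Of all genes, 15.6% fell under that value and 7.46% did so with a lower level. With GC correction 2 members did, beside 5.96% of all genes. The median log2 fold change of the members was -0.22, and that of all genes 0.02. In 0 of 38 members were the groups wholly apart, against 0.89% of all genes. Leaving out exercised replicate 4 raised edgeR's count over all genes from 0 to 625, and leaving out CSDS replicate 5 raised it to 43, with 0 members called in either fit.

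Foxd1 was at 0.667, 1.06 and 1.68 CPM in exercised mice, against 1.62, 2.04 and 2.88 CPM in CSDS mice. Here 5 of the 6 exercised mice lay below every CSDS mouse, and exercised replicate 5 overlapped with CSDS replicates 4 and 5. The log2 fold change was -0.88 ± 0.28 (edgeR adjusted p = 0.210). Foxc1 was at 4.35, 6.10 and 6.85 CPM in exercised mice, and all 6 lay below the CSDS median of 9.19 CPM, although CSDS replicates 4 and 5 were in the same range. Its log2 fold change was -0.50 ± 0.17 (edgeR adjusted p = 0.223), and -0.33 with GC correction.

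The smooth muscle genes had the most negative median of the 3 classes, at -0.30, with 6 of 6 fold changes below 0, or all but Des (0.057) with GC correction. Cnn1 was at 0.324, 0.838 and 1.005 CPM in CSDS mice and at 0.311, 0.390 and 0.512 CPM in exercised mice. Its exercised mice were close together, and 4 of the 6 CSDS mice lay above them while CSDS replicates 4 and 5 did not. The log2 fold change was -0.85 ± 0.39 (edgeR adjusted p = 0.304), from 7 to 22 counts per library. Myh11 was at 20.2, 29.8 and 35.3 CPM in CSDS mice and at 17.6, 22.3 and 27.9 CPM in exercised mice, all 6 of which lay below the CSDS median (-0.34 ± 0.15, edgeR adjusted p = 0.305). Acta2 was at -0.26 ± 0.17 and Myl9, the regulatory light chain of smooth muscle myosin, at -0.24 ± 0.15, which was -0.061 with GC correction.

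Pericyte genes were divided. Their median was -0.08, with 5 of 7 below 0. Abcc9, a subunit of the pericyte potassium channel, was at 8.95, 11.4 and 12.8 CPM in CSDS mice and at 10.4, 13.7 and 15.7 CPM in exercised mice. Of the exercised mice, 3 lay above every CSDS mouse, and the log2 fold change was 0.27 ± 0.14. Rgs5 was at 0.22 ± 0.14, Anpep at -0.26 ± 0.18 and Pdgfrb at -0.18 ± 0.15. GC correction turned the pericyte median to 0.042, and took Abcc9 to 0.16, Rgs5 to 0.042 and Pdgfrb to -0.069. Notch3, which limma voom called as lower, was at 0.049 with GC correction.

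Among fibroblast genes, 21 of 25 were below 0, with a median of -0.21. All 4 transcription factors and 8 of 10 matrix genes were among the 21. The median was -0.084 without exercised replicate 6 and -0.35 without exercised replicate 3. In this comparison 12 of 12 choroid plexus markers were below 0 (median -0.36) and 8 of 8 thalamic markers above it (1.15). Igfbp2 was at 20.04, 50.6 and 149.6 CPM in CSDS mice and at 13.6, 29.9 and 64.1 CPM in exercised mice. The groups overlapped, with 3 exercised mice below every CSDS mouse (-0.96 ± 0.51, edgeR adjusted p = 0.358). Igf2 was at 72.7, 125 and 336 CPM in CSDS mice and at 45.2, 117 and 247 CPM in exercised mice (-0.47 ± 0.52). Dcn was at 31.4, 40.8 and 48.5 CPM in CSDS mice and at 7.52, 39.55 and 57.3 CPM in exercised mice, a wider spread around a similar median (-0.21 ± 0.46). Leaving out 1 library took Igfbp2 to -0.53 (without CSDS replicate 3), Igf2 to between -0.80 (exercised replicate 2) and -0.16 (CSDS replicate 3), and Dcn to between -0.40 (exercised replicate 3) and -0.018 (exercised replicate 4).

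**Figure D1:**
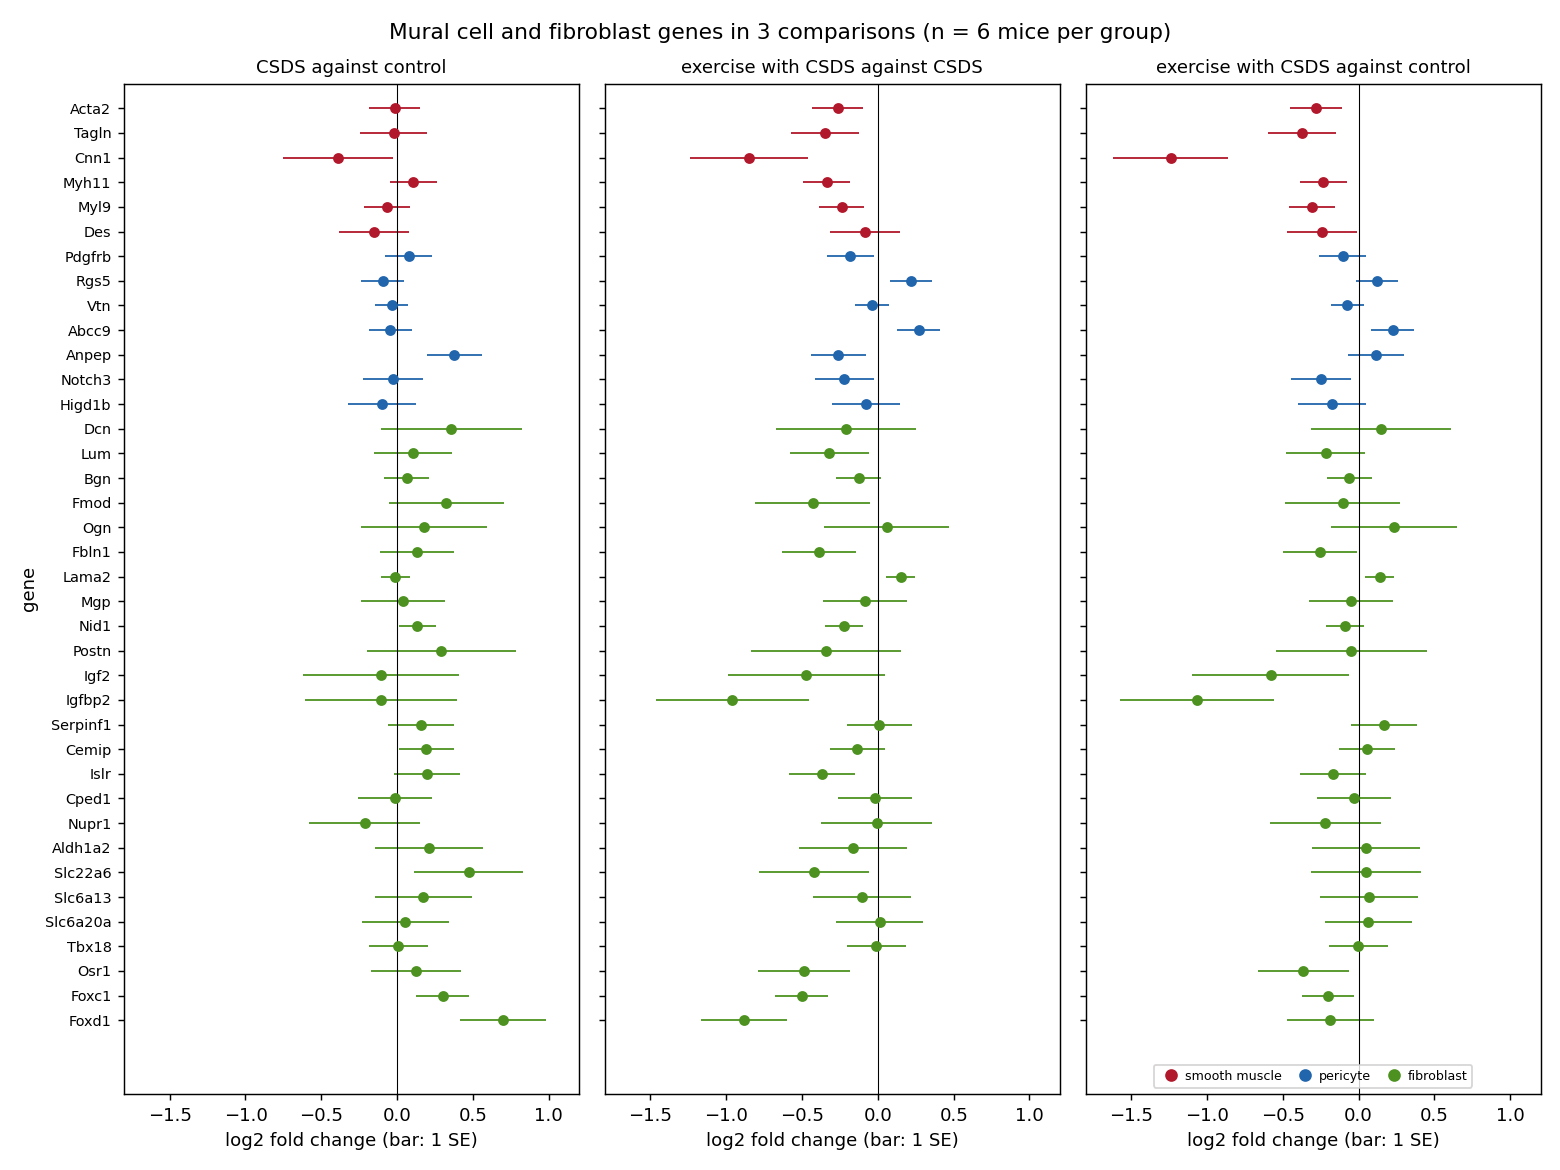
Log2 fold change of each of the 38 genes in the 3 comparisons, with bars of 1 SE from edgeR (6 mice per group) and colours for the cell classes. In the middle panel 32 of 38 points lie left of 0, among them all 6 smooth muscle genes, and 0 genes passed the adjusted threshold in any panel.

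The third comparison set exercised mice against controls, and so asked whether stress with training left a difference from untreated mice. It shares its libraries with the comparisons above and is not independent of them. By edgeR, 0 of 38 members passed the adjusted threshold, against 3 of all genes (0.0179%). DESeq2 and limma voom called 0 members too, among 113 (0.675%) and 183 (1.09%) genes. Without exercised replicate 4 edgeR called 13 genes, again with 0 members. At an unadjusted p under 0.05, edgeR had 2 members, Cnn1 and Igfbp2, both lower, while 11.2% of all genes fell under that value and 4.39% did so with a lower level. With GC correction 1 member did, beside 7.44% of all genes. The groups were wholly apart in 0 of 38 members, against 0.562% of all genes. The median log2 fold change was -0.10 over the members and 0.01 over all genes.

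Cnn1 was at 0.463, 0.671 and 1.77 CPM in controls, and all 6 exercised mice lay below the control median. Controls 3 and 5 were the high ones. The log2 fold change was -1.24 ± 0.38 (edgeR adjusted p = 0.258). All 6 smooth muscle genes were below 0 here too, with a median of -0.29, including Tagln, the actin-binding protein transgelin, at -0.37 ± 0.22, Myl9 at -0.31 ± 0.15 and Acta2 at -0.28 ± 0.17. Acta2 was at 20.6, 26.3 and 41.9 CPM in controls and at 18.2, 22.7 and 34.0 CPM in exercised mice, with wide overlap.

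Igfbp2 was at 25.8, 70.2 and 115 CPM in controls. All 6 exercised mice lay below the control median and 3 below every control (-1.07 ± 0.51, edgeR adjusted p = 0.445). Igf2 was at 31.7, 187 and 283 CPM in controls (-0.58 ± 0.52). Of all 25 fibroblast genes 16 were below 0, and the median was -0.05, with Lama2 at 0.14 ± 0.10, Osr1, a transcription factor of mesenchyme, at -0.36 ± 0.30 and Dcn at 0.15 ± 0.46. The fibroblast median was above 0 without control replicate 5 or 6 or exercised replicate 1 or 6, at most 0.036, and -0.13 without exercised replicate 2. Here too 12 of 12 choroid plexus markers were below 0 (median -0.63), as were 11 of 12 endothelial (-0.19) and 8 of 8 neocortical markers (-0.59). Above 0 were 5 of 8 thalamic (0.26), 7 of 8 dentate granule (0.20) and 6 of 8 hippocampal pyramidal markers (0.17). The part of these markers in the medians of the smooth muscle, pericyte and fibroblast genes was not tested. The pericyte median was -0.07, with Abcc9 at 0.22 ± 0.14, Notch3 at -0.25 ± 0.20, Rgs5 at 0.12 ± 0.14 and Pdgfrb at -0.11 ± 0.15. Notch3 was at -0.082 with GC correction. The signs for Dcn, Rgs5 and Igf2 turned under other settings.

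**Figure D2:**
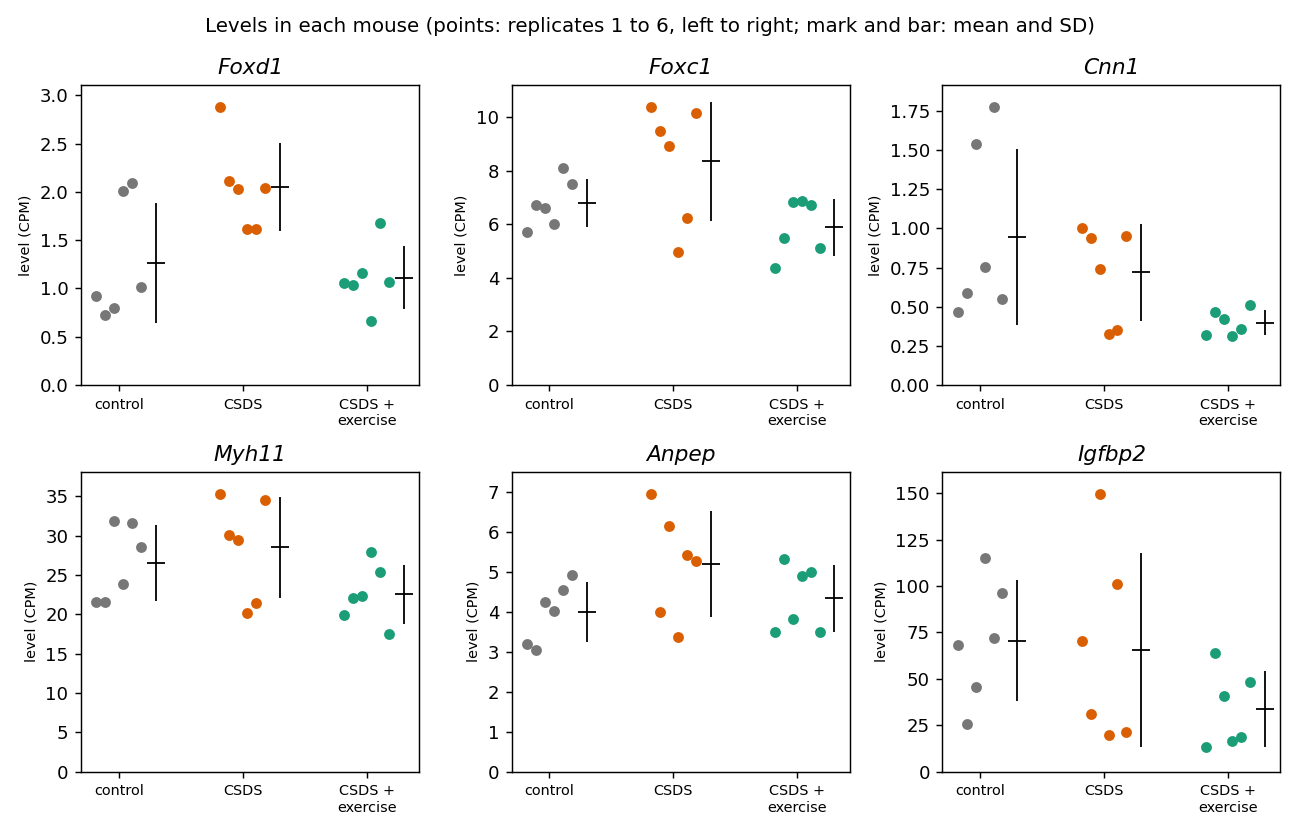
Level in CPM of Foxd1, Foxc1, Cnn1, Myh11, Anpep and Igfbp2 in each mouse, by group, with the mean and SD beside the points (n = 6). For Foxd1 the CSDS mice lie at 1.62 CPM or above and 5 of 6 exercised mice below that, and for Cnn1 the exercised mice lie between 0.311 and 0.512 CPM.

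Related pathway genes, listed by function, were read beside the members. Of 25 genes for platelet-derived growth factor, transforming growth factor beta and Notch signals to mural cells, 0 passed edgeR's adjusted threshold in any comparison. Pdgfa, a ligand for platelet-derived growth factor receptors, had the smallest p of these in both comparisons of exercised mice. It was at 23.9 ± 3.11 CPM in controls, 23.2 ± 2.16 in CSDS mice and 17.4 ± 1.27 in exercised mice (mean ± SD, n = 6). The log2 fold change was -0.42 ± 0.09 against CSDS (edgeR adjusted p = 0.151) and -0.46 ± 0.09 against control (edgeR adjusted p = 0.116). DESeq2 and limma voom called Pdgfa in both comparisons, and edgeR called it against CSDS when CSDS replicate 5 or exercised replicate 4 was left out. With GC correction the fold changes were -0.16 and -0.28, neither past the adjusted threshold. Which cells Pdgfa acts on in this tissue was not tested.

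Of 23 smooth muscle contraction genes, 21 were tested and 0 passed edgeR's threshold. Their median log2 fold changes lay at 0.00 in both comparisons of exercised mice. Lmod1, which nucleates actin filaments in smooth muscle, was at 3.60 ± 0.77 CPM in CSDS mice and 2.20 ± 0.54 in exercised mice (log2 fold change -0.71 ± 0.21, edgeR adjusted p = 0.198). It was called by limma voom, and by edgeR without exercised replicate 4. Synpo2, which binds actin, went the other way at 1.80 ± 0.69, and its level in exercised mice was 23.4 ± 29.5 CPM, an SD larger than the mean. Its log2 fold change was 0.83 without exercised replicate 6, 0.48 by voom and 1.06 with the replicate block. Exercised replicate 6, with Synpo2 at 80.2 CPM, was also the library with 1026 CPM of thalamic markers, and control replicate 3, with Synpo2 at 59.0 CPM, the one with 696 CPM. The part of these markers in the value was not tested.

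Of 23 fibrillar matrix genes, 22 were tested and 0 passed edgeR's threshold. Against CSDS mice 18 of the 22 were lower in exercised mice, with a median of -0.39, beside 46.5% of all genes. An unadjusted p under 0.05 was found for 6 of the 22, beside 15.6% of all genes. Loxl1, an enzyme that cross-links elastin, had the smallest p of these, at 6.92 ± 3.33 CPM in CSDS mice and 3.43 ± 1.15 in exercised mice (-1.01 ± 0.39, edgeR adjusted p = 0.251). It was called by limma voom and was at -0.66 with GC correction. Col1a1, the main collagen chain of fibroblasts, was at 21.8 ± 9.66 CPM in CSDS mice and 11.9 ± 2.39 in exercised mice (-0.87 ± 0.36, edgeR adjusted p = 0.268), and limma voom alone called it. Col6a3, a collagen of microfibrils, was at 2.16 ± 1.37 CPM in controls, 4.85 ± 3.16 in CSDS mice and 5.18 ± 2.98 in exercised mice. Its log2 fold change against controls was 1.16 ± 0.46 in CSDS mice (edgeR adjusted p = 0.993) and 1.26 ± 0.46 in exercised mice (edgeR adjusted p = 0.321). Of 16 retinoic acid genes 0 passed edgeR's threshold, and 11 were below 0 in exercised against CSDS mice. Rxra, a retinoid receptor, was at 57.2 ± 6.58 CPM in CSDS mice and 44.1 ± 5.63 in exercised mice (-0.38 ± 0.10, edgeR adjusted p = 0.198). DESeq2, limma voom and edgeR without exercised replicate 4 called it, and with GC correction it was at -0.12.

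Pairs of members were compared between mice of the same group. For each of the 703 pairs of members, Pearson's r was taken over the 18 libraries after removing group means from log2 CPM, and p came from permuting mice within groups, adjusted over the 703 pairs. The pairs named below were chosen after their values were seen. Fmod, the proteoglycan fibromodulin, and Slc6a13, a GABA and taurine transporter of meninges, had r = 0.93 and Spearman's rho = 0.94 (permutation p = 3e-05 for each, adjusted 0.00402 and 0.00703). Without the 2 mice farthest from the median of Fmod, r was 0.95. Fmod and Aldh1a2, the retinoic acid enzyme of meninges, had r = 0.93 and rho = 0.91 (permutation p = 3e-05 and 6e-05, adjusted 0.00402 and 0.00703), and r = 0.90 without the 2 farthest mice. Mice high in one of these genes were thus high in the others: Fmod was at 26.0 CPM in control replicate 5 and 5.26 CPM in control replicate 2, and Slc6a13 at 12.4 and 5.13 CPM.

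Among mural genes, Pdgfrb and Notch3 had r = 0.88 and rho = 0.82 (permutation p = 0.00036 and 0.00047, adjusted 0.0121 and 0.0194). Without the 2 farthest mice r was 0.78. Acta2 and Tagln had r = 0.86 and rho = 0.76 (permutation p = 7e-05 and 0.00164, adjusted 0.00547 and 0.0337), and 0.74 without the 2 farthest. Myh11 and Foxc1, of different classes, had r = 0.85 and rho = 0.87 (permutation p = 0.00013 and 7e-05, adjusted 0.00831 and 0.00703), and 0.78 without the 2 farthest. Notch3 and Higd1b, a mitochondrial protein of pericytes, had r = -0.77 and rho = -0.74 (permutation p = 0.00089 and 0.00105, adjusted 0.0226 and 0.0273), and -0.61 without the 2 farthest.

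By class, the median r was 0.50 for the 15 smooth muscle pairs, 0.02 for the 21 pericyte pairs and 0.39 for the 300 fibroblast pairs. The 300 pairs keep those with Igf2 or Igfbp2, whose levels fall into separate clusters of mice. Without control replicate 2 the 3 medians were 0.53, -0.09 and 0.28. Over all libraries and without GC correction, the 7 pericyte genes therefore did not vary as 1 block, and Rgs5 had negative r with most members. Within sets of mice split by choroid plexus markers, described below, r was taken without removing group means. It is therefore not the same measure as r over all libraries. The 3 medians were 0.51, 0.36 and 0.37 in the 7 mice low in these markers. In the 11 mice high in these markers they were 0.64, -0.09 and 0.30. Transcripts of Rgs5 and Abcc9 had 43.3% and 46.3% GC, against 52.6% to 59.7% for the other pericyte genes. The part of GC content in these r values was not tested. All 38 genes share libraries and scaling, and no difference between classes was tested.

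**Figure D3:**
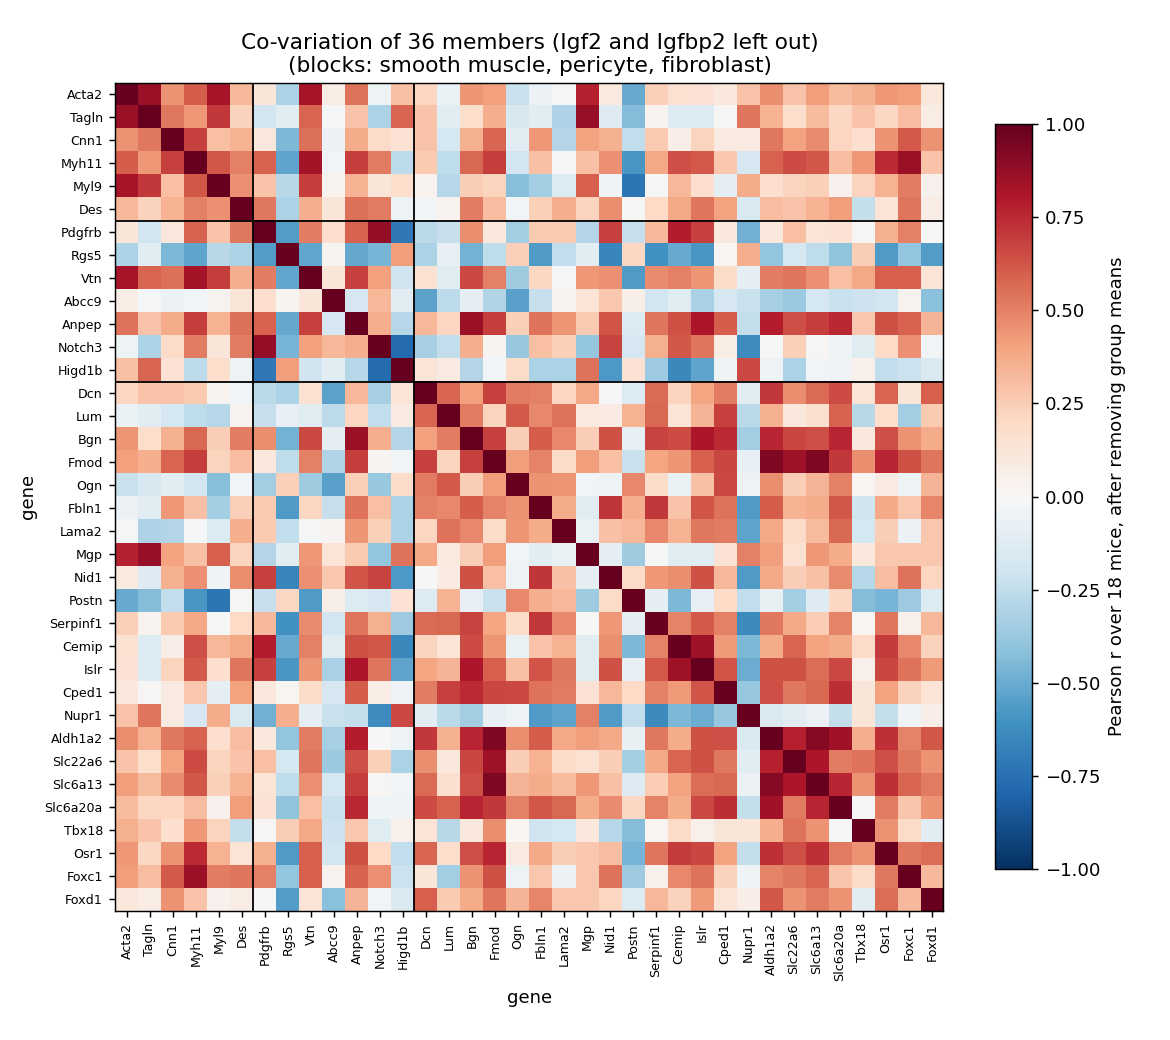
Pearson's r between 36 members over 18 mice after removing group means, from -1 (blue) to 1 (red), with lines between smooth muscle, pericyte and fibroblast genes. Fmod has red cells against Aldh1a2, Slc6a13 and Slc22a6, which lie apart from it in the order of genes, while Rgs5 and Higd1b have blue cells against Pdgfrb. Igf2 and Igfbp2 are left out because their levels fall into separate clusters of mice.

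The levels of Igf2 and Igfbp2 were higher in the mice with high levels of markers of the choroid plexus, an epithelium that also makes them. Whether this tissue was the source of their RNA was not tested. The summed choroid plexus markers split the mice into 7 below and 11 above 1000 CPM, a limit chosen after the values were seen. The 7 lay between 185 and 389 CPM and comprised 1 control, 3 CSDS and 3 exercised mice. The 11 lay between 2580 and 11095 CPM and comprised 5, 3 and 3. Igf2 ranged from 31.7 to 82.0 CPM in the 7 mice and from 136 to 336 CPM in the 11, and Igfbp2 from 13.6 to 31.0 and from 41.0 to 149.6 CPM. These 2 were the only members of the 38 whose levels did not overlap between the sets, and the share of all genes that lay apart in this way was not counted. Group means were not removed for r within the sets. There, r of Igf2 with Ttr and Kl was 0.87 and 0.75 in the 7 mice and 0.62 and 0.94 in the 11. That of Igfbp2 was 0.06 and -0.30 in the 7 and 0.46 and 0.79 in the 11.

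Within each set, Igfbp2 was lower in exercised than in CSDS mice. In the 7 mice it was at 13.6 to 18.8 CPM in 3 exercised mice and 20.04 to 31.0 CPM in 3 CSDS mice, and in the 11 at 41.0 to 64.1 and 70.2 to 149.6 CPM. Exercised and CSDS mice therefore did not overlap within either set, although with 3 against 3 mice an exact two-sided permutation test cannot go below p = 0.1. In the 11 mice the 5 controls were at 45.9 to 115 CPM and overlapped with the exercised mice. In the 7 the 1 control was at 25.8 CPM. Such separation within the sets was counted neither over all genes nor over the other members. It therefore cannot be read as particular to Igfbp2. With the choroid plexus level as a covariate, chosen after seeing the data, the log2 fold change of exercised against CSDS mice was -0.73 ± 0.18 for Igfbp2 (edgeR adjusted p = 0.154) and -0.39 ± 0.19 for Igf2 (edgeR adjusted p = 0.315). The same fit gave Igfbp2 -0.55 ± 0.19 for exercised mice against controls (edgeR adjusted p = 0.1999), and Igf2 0.01. Between Igf2 and Igfbp2, r without removing group means was 0.23 in the 7 mice and 0.90 in the 11.

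The other 36 members overlapped between the sets. Without removing group means, Fmod and Slc6a13 had r = 0.87 in the 7 mice and 0.96 in the 11, and Pdgfrb and Notch3 0.90 and 0.87. Lum, the proteoglycan lumican, was at 1.498 to 4.07 CPM in the 7 and 2.51 to 5.71 CPM in the 11, and Dcn at 3.90 to 52.5 and 14.4 to 59.35 CPM.

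**Figure D4:**
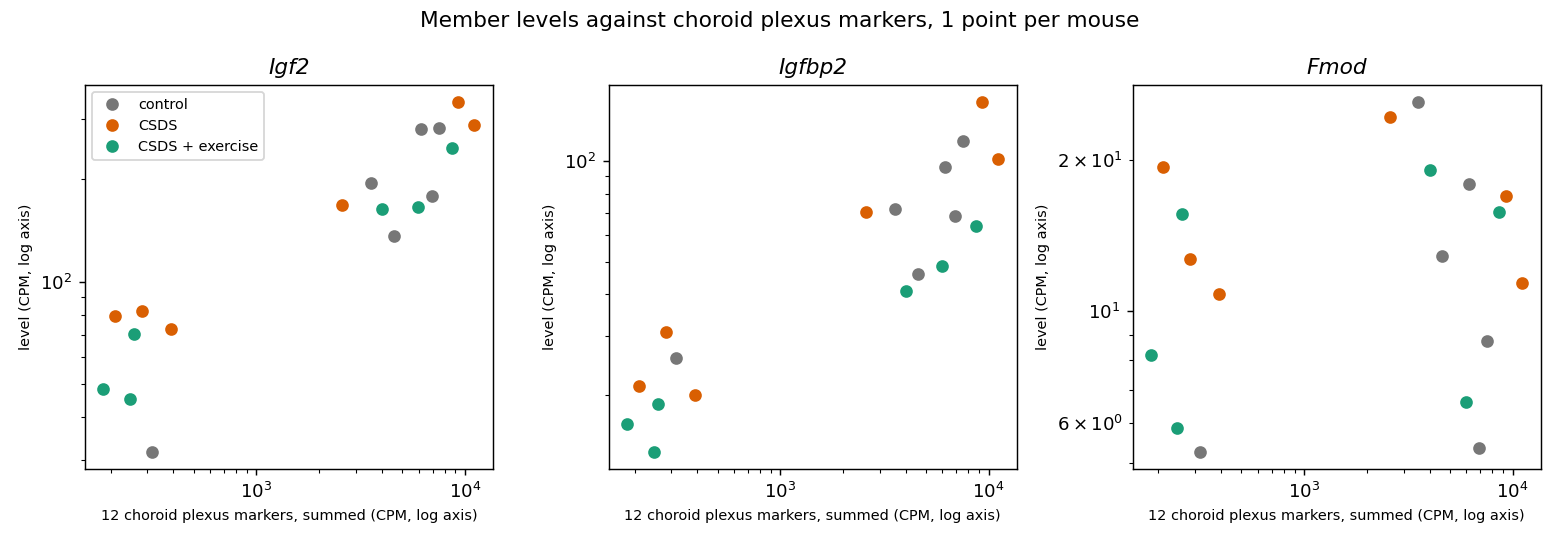
Level of Igf2, Igfbp2 and Fmod in each of 18 mice against the summed level of 12 choroid plexus markers, on log axes in CPM and coloured by group. Igf2 and Igfbp2 form a low and a high cluster along the choroid plexus axis, and Fmod overlaps between them, from 5.26 to 19.3 CPM in the 7 mice low on that axis and from 5.35 to 26.0 CPM in the 11 high ones.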

How the data were processed

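The authors deposited 1 table of expected counts per gene and library, which need not be whole and carry no normalization. Per the submitters' processing notes, fastp, HISAT2, RSEM and GRCm38 (mm10) were used. Versions, annotation release and the strand setting were not given in the sources used here. RSEM divides reads shared by near-identical genes, and overlapping genes are uncertain. The libraries came from a stranded kit, per the labels' protocols, and from RNA of integrity number 7 or above.

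Estimated counts were rounded to whole numbers (22.7% of nonzero values were not whole). Of 57180 identifiers, 51884 matched a symbol. Genes were filtered with filterByExpr (minimum count 10, minimum total count 15), scaled by TMM, and tested with edgeR 4.0.16 in R 4.3.3, in 1 quasi-likelihood fit to all 18 libraries. P-values were adjusted by Benjamini-Hochberg over all 16738 genes, with a threshold of 0.05. The SE is the fold change divided by the square root of F. DESeq2 1.42.0 and limma 3.58.1 (voom) were alternatives. The scripts were tested on simulated counts, where DESeq2 made more false calls than its threshold allows. Log2 CPM used a prior count of 2, correlations 100000 permutations, and the GC correction a loess smooth (span 0.3) on GENCODE M21 transcripts as an offset. No library was a copy of another in its group: chi-square per gene was 9.66 to 162 over 45 pairs within groups. Pairs between groups were not checked.

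The members, lists and tests were chosen with earlier results of these data known, so no list has a p of its own. Named with values were Acta2, Pdgfrb, Dcn, Igf2 and, per comparison, up to 3 members of each class with the smallest p. Pathway genes came from the 3 with the smallest p in a list and comparison, and markers from the first 2 of each list. Which of these are given, and any other gene named, was chosen after values were seen.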

Additional observations from a re-analysis of the deposited data

Results flagged for a closer look

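In 7 of the 114 combinations of a member and a group, 1 mouse lay far from the other 5. Chance flags about 1 in 20 such groups, here 5.7. Values are in CPM. In exercised mice, Acta2 was at 34.0 in replicate 5, with the others at 18.2 to 23.6. Replicate 4 had Pdgfrb at 50.6, with the others at 24.7 to 33.2, and Notch3 at 38.3, with the others at 16.1 to 21.8. Ogn, the proteoglycan mimecan, was at 8.63 in replicate 3 (others 1.56 to 3.54), and Postn, the matrix protein periostin, at 4.66 in replicate 6 (others 0.611 to 1.75). In CSDS mice, Nid1, the basement membrane protein nidogen, was at 10.3 in replicate 4 (others 14.6 to 16.3). In controls, Serpinf1, a secreted inhibitor of vessel growth, was at 3.22 in replicate 2 (others 9.78 to 12.8).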

How the results depend on the processing

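No member passed edgeR's adjusted threshold under any alternative fitted with edgeR, and the voom fit alone called members (11, in exercised against CSDS mice). Over all genes, exercised against CSDS mice gave 0 calls in the main fit, 173 by DESeq2, 5567 by voom, 2 with no filter, 1 with only the 2 groups and 1 with GC correction. Exercised mice against controls gave 3 calls, 113 by DESeq2, 183 by voom, 7 with the choroid plexus covariate, and 0 with no filter, with a filter of 1 CPM in 6 libraries, with only the 2 groups, with GC correction, with GC correction and the replicate block, and with GC correction and control replicate 2 left out. The last setting and the covariate were chosen after seeing the data. Leaving out 1 library gave 0 to 625 and 0 to 13 calls in these comparisons, and 0 in CSDS against control.

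Members with an unadjusted p under 0.05 numbered 1, 4 and 2 in the 3 comparisons, beside 3.51%, 15.6% and 11.2% of all genes. Apart from the main fit, that share was counted only with GC correction (4.13%, 5.96% and 7.44%). Counts under the other settings therefore cannot be set against all genes. In CSDS against control there were 2 by DESeq2, 4 by voom, 2 with the covariate and 0 with GC correction and control replicate 2 left out. In exercised against CSDS mice there were 2 with GC correction, 1 with GC correction and the replicate block, and 19 by voom. Voom called 33.3% of all genes there even at the adjusted threshold. In exercised mice against controls there were 7 by voom and 1 with GC correction, alone or with the replicate block. Leaving out 1 library gave 0 to 3, 2 to 8 and 1 to 5. The first was 0 without control replicate 2 or 3 or CSDS replicate 1, 2 without control replicate 6 or CSDS replicate 2, and 3 without control replicate 5 or CSDS replicate 4. The second was 2 without CSDS replicate 1 or 3 or exercised replicate 3, and 8 without CSDS replicate 4 and 7 without exercised replicate 4. The third was 1 without control replicate 1 or 5 or exercised replicate 1 or 3, 4 without exercised replicate 4 or 5, and 5 without control replicate 4.

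The pericyte median in exercised against CSDS mice turned to 0.042 with GC correction and to 0.041 with control replicate 2 left out as well. Of the 38 members, 0 to 10, 0 to 7 and 0 to 8 had the other sign under the settings other than leaving out a library, and 2 to 9, 2 to 5 and 2 to 8 without 1 library. Among genes given with values in CSDS against control, Des turned to 0.037 by voom, Rgs5 to 0.013 with GC correction and control replicate 2 left out, and Igf2 to 0.40 with the covariate. Without 1 library, Acta2 ranged from -0.10 to 0.12, Rgs5 from -0.21 to 0.0038 and Igf2 from -0.41 to 0.059. In exercised mice against controls, Igf2 turned to 0.013 with the covariate, Rgs5 to -0.020 and Dcn to -0.081 with GC correction, and Dcn to -0.32 with control replicate 2 left out as well. Without 1 library Dcn ranged from -0.085 to 0.43.

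Replicate numbers gave no sign of paired mice, although r between libraries cannot show whether a number marks a shared litter or day. Between same-numbered libraries r ran from -0.46 to 0.25, with 1 of 18 pairs over 0.1, and 0 libraries matched their own number best. With the replicate block, edgeR called 0 genes in each comparison, and 1, 2 and 1 members had an unadjusted p under 0.05 (share of all genes not counted). The member medians with the block were 0.09, -0.24 and -0.10, and Acta2 in CSDS against control turned to 0.00087 (0.00865 with GC correction too). With GC correction and the block, Rgs5 turned to -0.027 and Dcn to -0.13 in exercised mice against controls. Counts were low for Cnn1 (7 to 39 per library), for Postn (from 12) and for Foxd1 (from 15).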
